A study of Homo sapiens with 2 samples.

Results

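Mitotic cells were the cells with the most transcript from 10 genes of chromosome segregation, TOP2A, MKI67, CDC20, CCNB1, CCNB2, UBE2C, BIRC5, TPX2, CENPF and DLGAP5. For each barcode with 1000 or more genes and no more than 20% mitochondrially encoded transcripts, the unique molecular identifiers (UMIs, each standing for 1 captured RNA molecule) of these genes were summed and divided by all UMIs of the cell. The top 15% of this score over the kept cells of both libraries together gave 718 mitotic cells of 4787 kept cells, from 5401 barcodes. The control library gave 637 of them and the 4B4 library 81.

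HT1080 is an established human fibrosarcoma line, labelled wild type, and both groups were spheroids of 2000 cells, about 50 to a sample, in 500 µl of collagen for 72 h. The 4B4 culture had an antibody against the integrin β1 chain at 2 µg/ml in its medium. The control culture had none named, so blocking of the integrin and the presence of an antibody cannot be told apart. Cells were freed with collagenase and trypsin, a 3′ single-cell library was made from each culture, and 1 library stands for each group. Differences between the libraries therefore have no check by replicates, and an effect of the treatment cannot be told apart from one of the library.

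A dividing cell copies its DNA in S phase and segregates it in mitosis. Cyclin B with CDK1, helped by Polo and Aurora kinases, drives entry into mitosis, kinetochores tie chromosomes to the spindle, a checkpoint holds the cell until all are attached, and the anaphase-promoting complex (APC/C) then has cyclin B and securin destroyed. Transcripts of these proteins begin to accumulate while DNA is still being copied and are most abundant in G2 and mitosis, so a high score marks cells late in the cycle and not cells seen in division. Many of these genes have a CHR element (cell cycle genes homology region) near their start, often with CCAAT boxes bound by NF-Y, and are repressed by the DREAM complex in resting cells and activated by B-MYB and FOXM1. Genes of DNA replication more often have E2F sites.

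Promoters are shown for the genes on which the results below turn, because many genes that were higher in mitotic cells hold the motifs marked. Each line is the last 130 bases before the annotated start, 5′ to 3′ on the gene's strand, from RefSeq's GRCh38.p14 table. Capitals mark the CHR (TTTGAA) and the CCAAT box (CCAAT, or ATTGG where it lies on the other strand).
CCNB2: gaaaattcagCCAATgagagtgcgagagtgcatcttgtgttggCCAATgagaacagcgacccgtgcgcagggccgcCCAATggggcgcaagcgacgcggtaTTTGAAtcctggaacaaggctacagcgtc
CDC20: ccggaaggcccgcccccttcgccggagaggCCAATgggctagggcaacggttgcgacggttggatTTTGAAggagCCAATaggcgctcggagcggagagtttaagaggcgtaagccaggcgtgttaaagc
MKI67: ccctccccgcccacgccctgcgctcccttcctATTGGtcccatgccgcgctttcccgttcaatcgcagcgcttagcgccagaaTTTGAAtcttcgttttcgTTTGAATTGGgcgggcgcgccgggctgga
PLK1: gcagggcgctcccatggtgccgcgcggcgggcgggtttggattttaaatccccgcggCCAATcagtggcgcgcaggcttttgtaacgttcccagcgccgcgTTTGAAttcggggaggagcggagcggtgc
HMMR: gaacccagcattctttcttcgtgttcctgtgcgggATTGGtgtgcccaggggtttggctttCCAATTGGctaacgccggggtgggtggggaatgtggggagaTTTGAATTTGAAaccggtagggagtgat
CCNB1: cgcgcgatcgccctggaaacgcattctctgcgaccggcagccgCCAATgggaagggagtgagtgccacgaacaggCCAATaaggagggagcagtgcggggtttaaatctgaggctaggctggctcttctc
These windows were CCNB2 at chr15:59105016-59105145 on the plus strand, CDC20 at chr1:43358851-43358980 on the plus strand, MKI67 at chr10:128126424-128126553 on the minus strand, PLK1 at chr16:23678759-23678888 on the plus strand, HMMR at chr5:163460502-163460631 on the plus strand and CCNB1 at chr5:69167020-69167149 on the plus strand. In CCNB2, PLK1 and MKI67 a CHR began 29 bases before the start, MKI67 had another at 47, and HMMR had a CHR at 28 and another at 22. The CHR of CDC20 began 65 bases before the start. CCNB1 had no CHR in these letters and had CCAAT boxes that began 87 and 55 bases before the start. In MKI67 the last base of the nearer CHR was also the first of a reversed CCAAT box, and in HMMR a CCAAT box overlapped one on the other strand.

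A pair of replication genes is printed for contrast. Capitals here mark the E2F forms searched (TTCCCGC, or GCGGGAA on the other strand, and TTGGCGC) and the CCAAT box.
CDT1: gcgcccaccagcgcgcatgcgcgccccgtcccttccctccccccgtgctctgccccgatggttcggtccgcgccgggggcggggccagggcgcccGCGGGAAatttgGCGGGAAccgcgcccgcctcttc
MCM6: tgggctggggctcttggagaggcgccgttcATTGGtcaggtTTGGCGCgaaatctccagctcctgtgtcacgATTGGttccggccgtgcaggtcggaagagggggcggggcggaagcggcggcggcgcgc
These windows were CDT1 at chr16:88803659-88803788 on the plus strand, the gene of a factor that loads the replicative helicase, and MCM6 at chr2:135876444-135876573 on the minus strand, the gene of a helicase subunit. CDT1 had reversed E2F sites that began 35 and 23 bases before the start. MCM6 had the form TTGGCGC that began 89 bases before it, and reversed CCAAT boxes that began 100 and 58 bases before it. Beyond the bases printed MCM6 also held TTCGAA, a variant of the CHR, which began 246 bases before the start.

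Over whole promoter windows of 300 bases (250 before and 50 after the start) the motifs were counted on both strands. Genes at least 2-fold higher in mitotic than in other cells of both libraries numbered 330, which is 4.78% of the 6904 genes measured at 20 transcripts per 1000000 in both. In the control library alone the count was 371 of 7088 (5.23%), with 41 (0.578%) at least 2-fold lower, and in the 4B4 library 473 of 7358 (6.43%), with 47 (0.639%) lower. Of these, 203 had 1 promoter in the table, and 93 of the 203 (45.8%) held a CHR (TTTGAA or its variant TTCGAA). The share was 11.4% among the 3943 promoters of all genes measured and 17.2% over all 22114 promoters. It was 44.4% of 196 without the genes of the score. A CCAAT box lay in 62.6% of the 203, in 38.1% of the 3943 and in 36.2% of all promoters. Both motifs together lay in 34.5%, 5.50% and 6.91%. For the E2F forms (TTCCCGC or TTGGCGC) the shares were 30.5%, 16.4% and 9.02%. Of the 10 genes of the score 7 were in the table, 6 of them with a CHR and all 7 with at least 2 CCAAT boxes, and none held an E2F form. The 21 promoters of the replication list described below held the E2F forms in 81.0% and a CHR in 9.52%. These are matches of letters, with no measure of binding.

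Mitotic cells made up 18.7% of kept cells in the control library (637 of 3402, exact 95% interval 17.4% to 20.1%) and 5.85% in the 4B4 library (81 of 1385, 4.67% to 7.22%). The share was 3.20-fold larger in the control library (2.54 to 4.09). The score chose the cells, so the shares describe where a common bound on the score fell in each library, and the intervals here and below cover counting error only. The bound lay at 1009 UMIs of the 10 genes per 1000000 of the cell. The cells nearest inside it had 1009.34 and 1013.74 (control) and 1021.01 (4B4), and those nearest outside 1008.43 (control), 1007.63 (4B4) and 1006.15 (control). Within a factor of 1.2 of it lay 131 control and 26 4B4 cells. The mitotic cells were therefore one end of a continuous score.

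**Figure D1:**
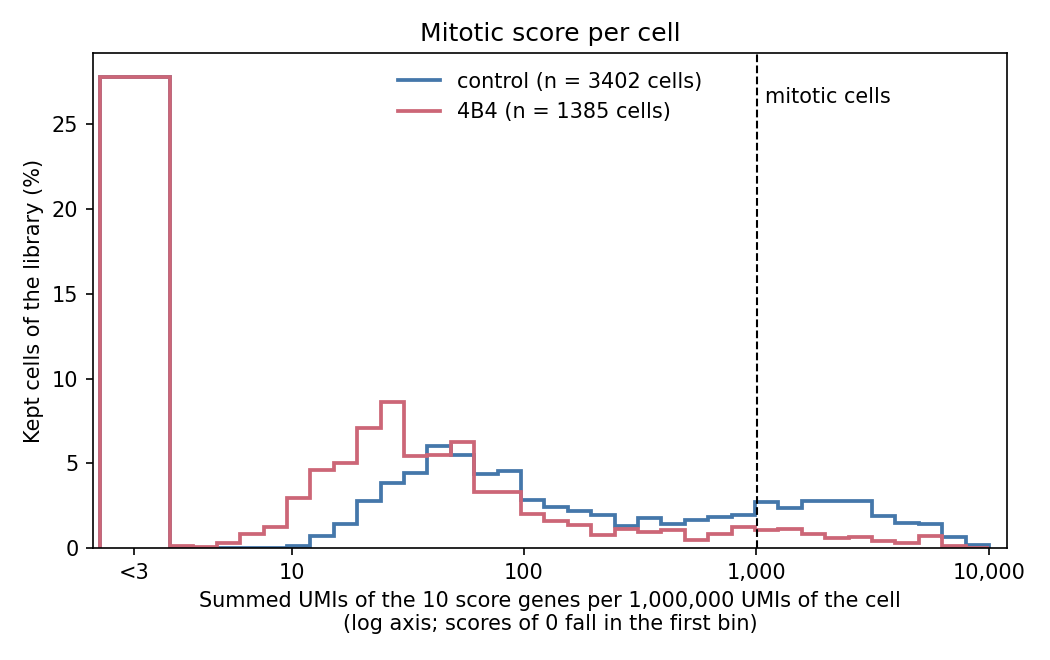
Share of each library's kept cells (vertical axis, %) by score, the summed UMIs of the 10 genes per 1000000 UMIs of the cell (horizontal log axis, with scores of 0 in the first bin, where the lines of both libraries lie almost on each other). The dashed line is the bound, above which 18.7% of control and 5.85% of 4B4 cells lay, and no gap in the score separates the sides.

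Depth differed between the libraries and moved with the score. Control mitotic cells had a median of 42568 UMIs and 7412 genes, against 30931 and 6140 in other control cells. In the 4B4 library the medians were 86509 UMIs and 9733 genes in mitotic cells, and 67263 and 8362 in the others. Mitotic cells were thus deeper than the others by 1.38-fold in the control and 1.29-fold in the 4B4 library. The median share of mitochondrially encoded UMIs was lower in mitotic cells, at 6.88% against 9.65% in the control and 5.67% against 7.81% in the 4B4 library. Below 20000 UMIs per cell the mitotic share was 9.19% in the control (49 of 533 cells) and 5.95% in the 4B4 library (5 of 84). From 20000 to 60000 UMIs it was 18.2% (445 of 2449) and 2.79% (14 of 502), and from 60000 UMIs on 34.0% (143 of 420) and 7.76% (62 of 799). The control share was the larger in each range, though below 20000 UMIs the intervals of the shares overlapped (6.88% to 11.97% and 1.96% to 13.3%). With every cell thinned to 17000 UMIs and the mitotic cells chosen again, the shares were 18.9% and 5.72%. The part of doublets in the deeper mitotic cells was not tested, since no doublet caller was run. The libraries shared 2 barcodes, and 0 of them was a mitotic cell.

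Levels below are UMIs summed over a class of cells per 1000000 UMIs of that class (UPM), taken over 29307301 UMIs of control mitotic cells, 97910813 of other control cells, 7538557 of 4B4 mitotic cells and 108912523 of other 4B4 cells. The library is 3′-tagged, so UPM counts molecules and needs no correction for length. Ratios are log2 with no pseudocount.

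The genes of the score set the group, and their values are given as its description. CENPF, a large kinetochore and nuclear envelope protein, was the most abundant, at 546.5 UPM in control and 553.6 in 4B4 mitotic cells against 25.9 and 14.9 in the other cells. TOP2A, the topoisomerase that untangles sister DNA, was at 459 and 473 UPM against 21.2 and 11.9. UBE2C, the ubiquitin-conjugating enzyme of the APC/C, was at 330 and 266 UPM against 12.9 and 8.92. Within mitotic cells these 3 genes differed between the libraries by less than 1.5-fold, and they differed by over 10-fold between mitotic and other cells. TPX2, the spindle factor that activates Aurora A, was at 322 and 293 UPM against 15.6 and 8.76, and CCNB1, cyclin B1, at 278 and 254 UPM against 10.6 and 7.82. MKI67, the coat protein of mitotic chromosomes, was at 255 and 276 UPM, and BIRC5, survivin of the chromosomal passenger complex, at 194 and 175. The values of CDC20, the APC/C activator that the spindle checkpoint restrains, were 188 and 142 UPM, and those of DLGAP5, a microtubule-bundling factor, 145 and 133. CCNB2, cyclin B2, was lowest at 95.4 and 81.8 UPM. Of all UMIs of the 10 genes over kept cells, mitotic cells held from 82.2% (BIRC5) to 93.2% (DLGAP5) in the control library and from 64.5% (CDC20) to 82.9% (DLGAP5) in the 4B4 library.

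**Figure D2:**
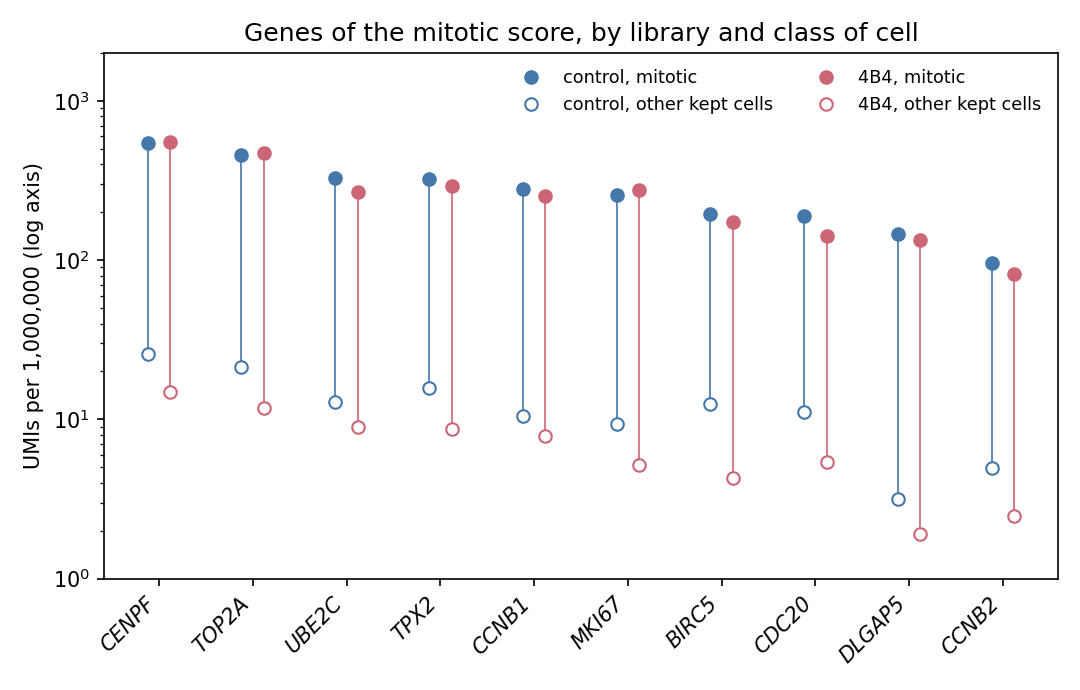
Level of each gene of the score (UPM, log axis) in mitotic and other kept cells of the control and 4B4 libraries, with a line joining the classes of a library. Within mitotic cells the libraries lie close together, from 546.5 and 553.6 for CENPF down to 95.4 and 81.8 for CCNB2, and other cells lie over 10-fold lower.

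Other genes of mitosis, grouped by role, were counted by lists. A listed gene was measured at 5 UPM or more on either side, and was called higher or lower at 1.5-fold with its counting interval on that side of 1. Between mitotic and other cells 1359 of 11546 genes (11.8%) were higher by this rule in the control library and 2086 of 11575 (18%) in the 4B4 library, and 655 (5.67%) and 635 (5.49%) were lower. The 8 lists of mitosis held 146 genes, the 10 of the score among them. Of these, 124 were higher in mitotic cells of the control and 126 in those of the 4B4 library, and 0 were lower in either, with medians of 2.77 and 3.12 against medians of 0.074 and 0.18 over all measured genes. The score chose these cells, so the contrast with other cells is a description.

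Among kinases and cyclins, all 20 were higher in mitotic cells of both libraries. NEK2, a centrosomal kinase, had the largest ratio, with 49.1 UPM in control mitotic cells, 1.11 in other control cells, 47.9 in 4B4 mitotic cells and 0.780 in other 4B4 cells. PLK1, the Polo kinase, was at 99.7 UPM against 2.78 in the control and 88.9 against 2.21 in the 4B4 library. AURKA, which matures centrosomes, was at 97.5 and 98.6 UPM in mitotic cells. CDK1, the partner of cyclin B, was at 197 and 196 UPM. Mitotic cells of the libraries thus carried these kinases at near-equal levels at this bound. AURKB, the kinase of the chromosomal passenger complex, was at 81.9 UPM (78.7 to 85.2) in control and 55.7 (50.5 to 61.3) in 4B4 mitotic cells, a log2 ratio of -0.56. That is under 1.5-fold, and the AURKB ratio was at least 1.5-fold lower in 14 of 24 alternative settings, among them TMM factors (-0.65) and median-of-ratios size factors (-0.65). It ranged from -1.66 with the top 15% of each library to -0.30 over cells of 20000 to 60000 UMIs. Settings that change only the floor give the main ratio again.

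All 6 genes of the passenger complex and shugoshins and all 31 spindle genes were also higher in mitotic cells of both libraries. HMMR, a spindle assembly factor, was at 141 and 143 UPM in control and 4B4 mitotic cells against 4.08 and 2.45 in the others, and ASPM, which holds spindle poles, at 126 and 133 against 3.23 and 1.87. The tubulin genes TUBA1B and TUBA1C, used in all cells, had smaller ratios of mitotic over other cells, 1.31 and 1.58 in the control and 1.21 and 1.48 in the 4B4 library. Of 30 centromere and kinetochore genes 27 were higher in the control and 28 in the 4B4 library. CENPE, the kinetochore motor, was at 146 and 166 UPM against 5.14 and 4.64. Of the 11 genes of the spindle checkpoint 9 were higher in each library. BUB1 and TTK, kinases of that checkpoint, were at 48.9 and 56.4 UPM in control mitotic cells and at 44.2 and 55.7 in 4B4 mitotic cells, while MAD1L1 was at 62.8 UPM in control mitotic and 64.9 in other control cells.

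Of the 17 genes of the APC/C list 10 were higher in each library, and its list median was 0.66 in the control and 0.62 in the 4B4 library. CDC20 and UBE2C, both of the score, had log2 ratios of mitotic over other control cells of 4.07 and 4.67. PTTG1 (securin, which holds separase back) was at 310 UPM in control mitotic and 36.3 in other control cells. Condensin, cohesin and compaction genes were higher in 15 of 20 in each library. NCAPG, a condensin subunit, was at 99.1 and 100.7 UPM in mitotic cells against 6.59 and 3.81, while STAG2, a cohesin subunit, was at 73.5 and 104 against 66.1 and 72.6. Of 16 cytokinesis genes 11 and 12 were higher. KIF20A, a motor of the central spindle, was at 25.8 and 20.2 UPM against 0.725 and 0.459, and RHOA, the GTPase of the contractile ring and of much else, at 325 and 423 against 277 and 337.

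Genes outside the lists with the largest ratios of mitotic over other cells included further genes of division. DEPDC1, a mitotic protein, was at 94.7 UPM in control and 98.96 in 4B4 mitotic cells against 3.34 and 1.52. CDCA2, which targets a phosphatase to chromosomes as they decondense, was at 69.0 and 73.9 UPM against 3.13 and 2.28, and ESCO2, which acetylates cohesin in S phase, at 48.9 and 57.7 against 3.70 and 2.34. HMGB2, a DNA-bending chromatin protein, was the most abundant of them, at 506 and 379 UPM against 47.6 and 36.3. Of the 330 genes higher in both libraries, 103 were on the lists of mitosis and 21 on the list of DNA replication.

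Among regulators of these genes, FOXM1 was at 54.8 and 46.7 UPM in control and 4B4 mitotic cells against 5.46 and 2.13 in other cells, and MYBL2, the gene of B-MYB, at 47.1 and 43.9 against 7.84 and 3.40. Of the 16 regulators measured 10 were higher in mitotic cells of the control and 12 in those of the 4B4 library. LMNB1, lamin B1, led the nuclear envelope list at 56.7 and 49.7 UPM against 8.61 and 3.79, in a list with 7 and 9 of 13 higher. Of 20 genes of the cell cortex 4 and 10 were higher, ANLN (anillin) among them at 98.0 and 93.5 UPM against 7.93 and 3.42.

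Genes of DNA replication were high in the same cells. Of 33 on that list 30 (control) and 33 (4B4) were higher in mitotic than in other cells. RRM2, the ribonucleotide reductase subunit of S phase, was at 126 and 115 UPM in mitotic cells against 14.2 and 8.54, and TYMS, thymidylate synthase, at 325 and 237 against 72.8 and 27.1. At 17000 UMIs per cell the list had medians of 34 UMIs in control and 29 in 4B4 mitotic cells, against 7 and 5 in other cells. Of 26 listed histone genes 8 were measured, of which 7 were higher in mitotic cells of the control and 5 in those of the 4B4 library, with H1F0, H1FX and HIST1H1C not called in the latter. HIST1H4C, a replication-dependent histone H4, was at 1673 and 2128 UPM in mitotic cells against 423.6 and 437 in others. Histone genes of these families have near-identical copies, and a polyA library captures few of their unpolyadenylated RNAs, so their levels are uncertain. High-score cells thus included cells with replication transcripts, and the group is wider than mitosis.

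The replication and mitotic transcripts separated along the score. The 718 cells were divided at the score's quartiles into 4 bands, which held 154, 158, 164 and 161 control cells and 26, 21, 15 and 19 4B4 cells from the lowest to the highest band. The summed replication list was at 2416, 2560, 2040 and 1708 UPM over the bands in the control library and at 2296, 2509, 1877 and 1245 in the 4B4 library. It was highest in the second band of both and lowest in the fourth, where the control cells still exceeded other control cells at 813 UPM. Mitotic kinases and cyclins, summed without the genes of the score, were at 1112 UPM in the lowest and 3093 in the highest control band. In those bands of the 4B4 library they were at 1098 and 2923 UPM.

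**Figure D3:**
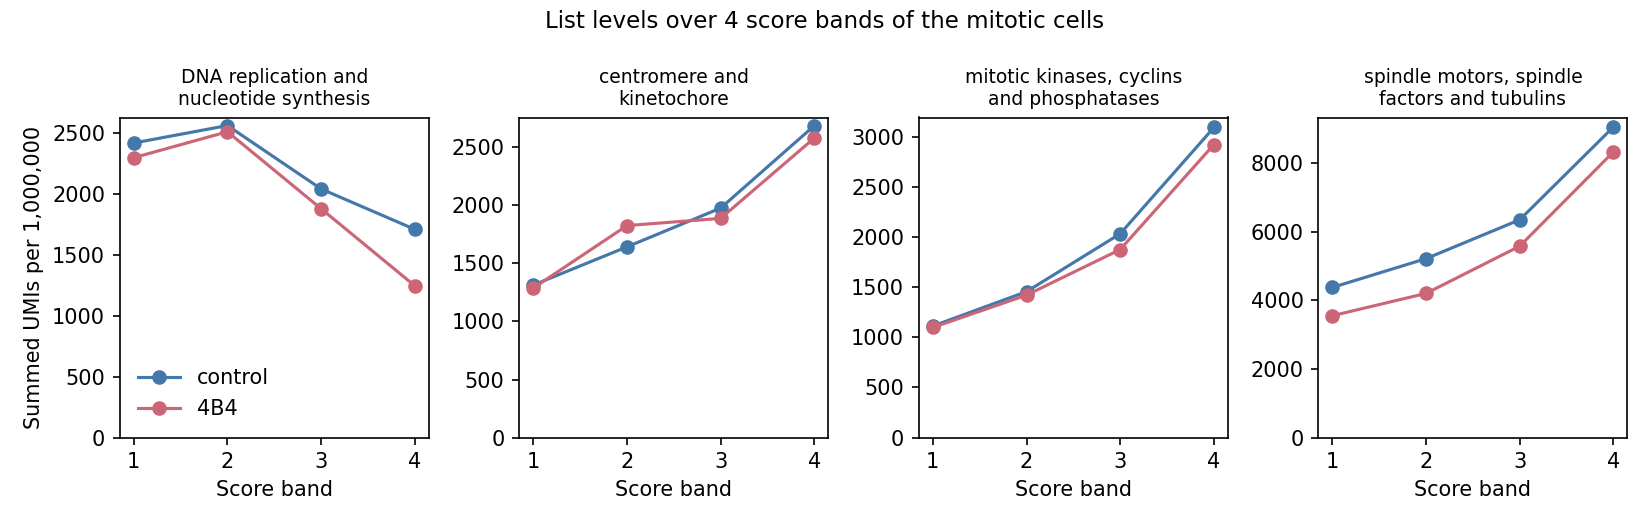
Summed UPM (vertical axes, from 0) of 4 gene lists over the 4 score bands of mitotic cells (horizontal axes, lowest to highest score) in the control and 4B4 libraries. Replication genes peak in band 2, at 2560 and 2509 UPM, and are lowest in band 4. The kinetochore, kinase and spindle lists, summed without the genes of the score, are highest in band 4.

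Single genes showed how far the bands differed. CENPE, not used by the score, was at 38.7, 71.7, 148 and 322 UPM over the control bands and at 52.7, 98.6, 154 and 394 over the 4B4 bands. PLK1 was at 35.4, 55.7, 102 and 205 UPM in the control and at 31.5, 38.1, 105 and 206 in the 4B4 library. Both were higher in each band than in the one before, in both libraries. CDC6, which helps load the replicative helicase, was at 35.9, 29.5, 18.4 and 12.5 UPM over the control bands and at 41.5, 51.3, 30.7 and 16.1 over the 4B4 bands. E2F1, a transcription factor of S phase entry, was at 27.6, 24.5, 11.4 and 8.02 UPM in the control and at 25.3, 37.1, 17.7 and 4.31 in the 4B4 library. CCNE2, cyclin E2, was at 13.2 UPM in the lowest and 1.495 in the highest control band. At 20 UPM the lowest log2 ratios of the highest over the lowest control band were those of FAM111B (-3.17), UNG (-2.08), E2F1 (-1.78) and CDC6 (-1.52), and the highest those of PIF1 (3.54), CENPE (3.06), NEK2 (2.84) and ASPM (2.82). These 8 genes had the same sign in the 4B4 library, with ratios of -4.17, -3.14, -2.56, -1.36, 2.80, 2.90, 3.31 and 2.85. The score defined the bands, and genes that vary with it across cells must follow it.

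Within mitotic cells, the comparison asks how these cells differed between the 4B4 and the control library. Most transcripts had similar levels. Of 7318 genes at 20 UPM or more in either library's mitotic cells, 43 (0.588%) had a level 2-fold higher or more in the 4B4 library and 35 (0.478%) were lower by that rule, and the median log2 ratio over the 7318 was 0.079. In the other kept cells 19 of 6646 (0.286%) were higher and 49 (0.737%) lower. The split of calls depended on scaling, since 31 were higher and 40 lower with TMM or median-of-ratios factors, with which the median was -0.018 or -0.016. Of the 43 genes, 10 were also called in other cells (23.3% of the 43 and 52.6% of the 19), and of the 35 lower genes 17 were (48.6% and 34.7% of the 49). The 4B4 mitotic pool came from 81 cells, and 1 cell could set a value. With the cell richest in each gene left out of both libraries 24 genes were higher and 41 lower. That step takes 1 of 81 cells in the 4B4 library and 1 of 637 in the control, with the totals kept. It therefore lowers 4B4 levels more, and the median log2 ratio was then 0.015. The change in these counts is thus not a measure of single cells alone.

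By the rule of 1.5-fold used for lists, 526 of 11491 genes (4.58%) were higher and 315 (2.74%) lower in 4B4 than in control mitotic cells. Of the 146 genes of mitosis 0 were higher and 1 was lower, with a median of -0.029. By fold alone 34 of them were lower and 1 higher over cells of 20000 to 60000 UMIs, where 13 4B4 mitotic cells remained, and 98 were lower with the top 15% chosen within each library. Cells thinned to 17000 UMIs gave 7 lower and 2 higher, and the other 21 settings 1 to 4 lower and 0 or 1 higher. Among the latter, those that change only the floor repeat the main ratios. The lower one under the common bound was PSRC1, a microtubule-binding protein of the spindle, at 31.6 UPM in control and 18.8 in 4B4 mitotic cells and 4.64 and 4.66 in other cells. CDCA3, a trigger of entry into mitosis outside the lists, was at 67.0 UPM and 39.3. Of the 33 replication genes 0 were higher or lower in mitotic cells, with a median of -0.054. The extremes of that list were CDC6 at 24.0 UPM in control and 35.95 in 4B4 mitotic cells and TYMS at 325 and 237.

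These counts rest on the common bound of the score. With the top 15% chosen within each library the lowest score was 1440 per 1000000 in the control (510 cells) and 131 in the 4B4 library (208 cells). The medians of the 8 lists of mitosis, which lay between -0.13 and 0.080 under the common bound, then lay between -1.32 and -0.33. Near-equal levels of these genes therefore describe cells matched on the score and not the libraries.

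In the other cells, those below the bound, the medians of the same lists, 4B4 over control, were all below 0. They ran from -0.97 for the passenger complex and shugoshins, with 2 genes measured, to -0.036 for the APC/C list. Summed, the APC/C list was at 835 UPM in other control and 851 in other 4B4 cells. By the rule for lists 192 of 11251 genes (1.71%) were higher and 455 (4.04%) lower in other 4B4 cells. Of the 146 genes of mitosis 101 reached 5 UPM there, 26 of them lower and 0 higher, with a median of -0.31. Of the replication genes 23 of 31 were lower and 0 higher, with a median of -0.75. TK1, thymidine kinase of S phase, was at 29.5 UPM in other control and 8.81 in other 4B4 cells, and at 123 and 99.4 in mitotic cells. The interval of scores below the bound was filled differently in the libraries, and the difference between mitotic and other cells was not tested.

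**Figure D4:**
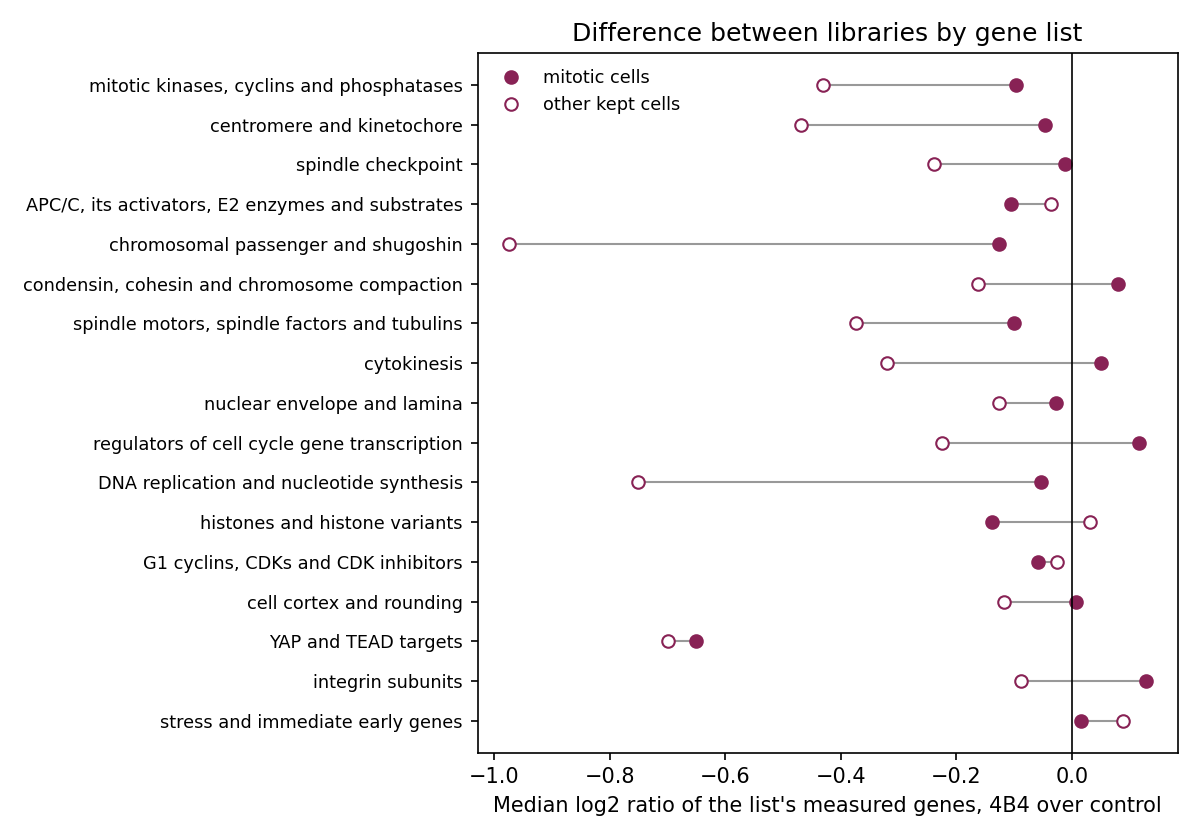
Median log2 ratio, 4B4 over control, of each gene list in mitotic (filled) and other kept cells (open), each over the genes measured in that class. Lists of mitosis lie near 0 in mitotic cells (-0.13 to 0.080), the replication list at -0.054 in mitotic and -0.75 in other cells, and the targets of YAP and TEAD at -0.65 and -0.70.

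Among genes outside the division lists, targets of YAP and TEAD, the transcription factors that respond to cell spreading and tension, were lower in 4B4 mitotic cells. Of 20 measured 12 were lower and 0 higher, with a median of -0.65, and in other cells 14 of 19 were lower, with a median of -0.70. CCN1, a secreted matricellular protein, was at 184 UPM (179 to 189) in control and 64.2 (58.6 to 70.2) in 4B4 mitotic cells, a log2 ratio of -1.52. ANKRD1, a cytoskeleton-linked regulator, was at 122 and 46.6 UPM, and 25.6% of its 4B4 UMIs came from 1 cell. Without the richest cell of each library its log2 ratio was -1.75 in place of -1.39. CCN2 was at 68.1 and 29.5 UPM and AMOTL2, a partner of YAP, at 50.8 and 20.7. At 17000 UMIs per cell CCN1 was detected in 68.7% of control (64.8% to 72.4%) and 38.2% of 4B4 mitotic cells (27.2% to 50.0%), and in 81.0% and 66.7% without thinning. Free RNA in the droplets can give a cell a UMI, and a culture of 1 line has no cell type to show that background. Summed over the list, levels were 1499, 1687, 1786 and 1770 UPM over the control bands and 1232, 1152, 873 and 1209 over the 4B4 bands, lower in the 4B4 library in each band. It was chosen with the difference between the whole libraries known, so its direction here is not independent evidence.

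Integrin genes had a median log2 ratio, 4B4 over control, of 0.13 in mitotic cells, against 0.084 over all measured genes. ITGB1, the gene of the β1 chain that the antibody binds, was at 646 UPM (637 to 655) in control and 945 (923 to 967) in 4B4 mitotic cells, and at 641 and 769 in other cells. ITGA2, its partner in a collagen receptor, was at 120 UPM (116 to 124) and 217 (207 to 228) in mitotic cells and at 122 and 141 in other cells. ITGA11, another collagen receptor chain, was at 41.4 and 74.8 UPM in mitotic and 77.2 and 108 in other cells. ITGA2 and ITGA11 were the 2 of 12 integrin genes called higher in mitotic cells, where 0 were lower. Over all genes measured there, 4.58% were higher and 2.74% lower by that rule. ITGB1 was not called. With the top 15% chosen within each library the log2 ratio of ITGA2 was 0.35 in place of 0.86, and that of ITGB1 0.17 in place of 0.55.

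The largest ratios belonged to genes of varied function. UNC13C, a synaptic vesicle priming protein, was at 3.72 UPM in control and 32.2 in 4B4 mitotic cells, and its log2 ratio of 3.12 was 1.24 over cells of 20000 to 60000 UMIs. HMOX1, haem oxygenase 1, was at 17.9 UPM (16.4 to 19.5) and 115 (107 to 123), and at 24.8 and 107 in other cells. It was detected at 17000 UMIs per cell in 22.5% of control and 46.1% of 4B4 mitotic cells, and without thinning in 38.6% and 79.0%. SPP1, osteopontin, was at 38.3 and 111 UPM in mitotic and 55.1 and 162 in other cells, so it was lower in mitotic than in other cells of each library and higher in 4B4 cells of either class. TIMP1, an inhibitor of matrix metalloproteinases, was the most abundant, at 1400 UPM and 3655 in mitotic and 1999 and 4213 in other cells. FN1, fibronectin, was at 329 and 764 UPM in mitotic and 786 and 1214 in other cells. PMEPA1, a target and brake of TGF-beta signalling, was at 22.2 and 76.5 UPM in mitotic and 13.6 and 29.8 in other cells. For other genes 1 cell held much of the 4B4 value. The neuropeptide gene NTS had 36.4% of its 4B4 UMIs in 1 cell, and its log2 ratio of 2.19 was 1.70 without the richest cell of each library and 0.17 with the top 10% of pooled cells. CEMIP, of hyaluronan breakdown, had 46.4% in 1 cell. Its ratio of 1.51 was 0.79 without the richest cell of each library and 0.096 over cells of 20000 to 60000 UMIs.

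In the other direction SAA1, an acute-phase protein, had 106 UPM (102 to 110) in control mitotic cells and 5.44 (3.90 to 7.38) in 4B4 mitotic cells. It was higher in mitotic than in other cells of the control library, where other cells had 49.3 UPM, and 8.15 UPM was measured in other 4B4 cells. A single cell held 75.6% of the SAA1 UMIs of 4B4 mitotic cells. Without the richest cell of each library the SAA1 log2 ratio of -4.29 in mitotic cells was -6.25. SAA1 and SAA2 are near-identical, so reads may be divided between them in ways the counts do not show. PLK2, a Polo-like kinase of stress and centriole control and not the kinase of mitotic entry, was at 78.9 UPM and 27.1. TENM2, a membrane protein of cell contacts, was at 124 and 43.4 UPM, and CDH4, R-cadherin, at 21.02 and 8.49. Of the genes that led the difference between the whole libraries 23 were measured in mitotic cells, and 12 were higher and 9 lower there. They were chosen from these libraries, so that count is a description.

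**Figure D5:**
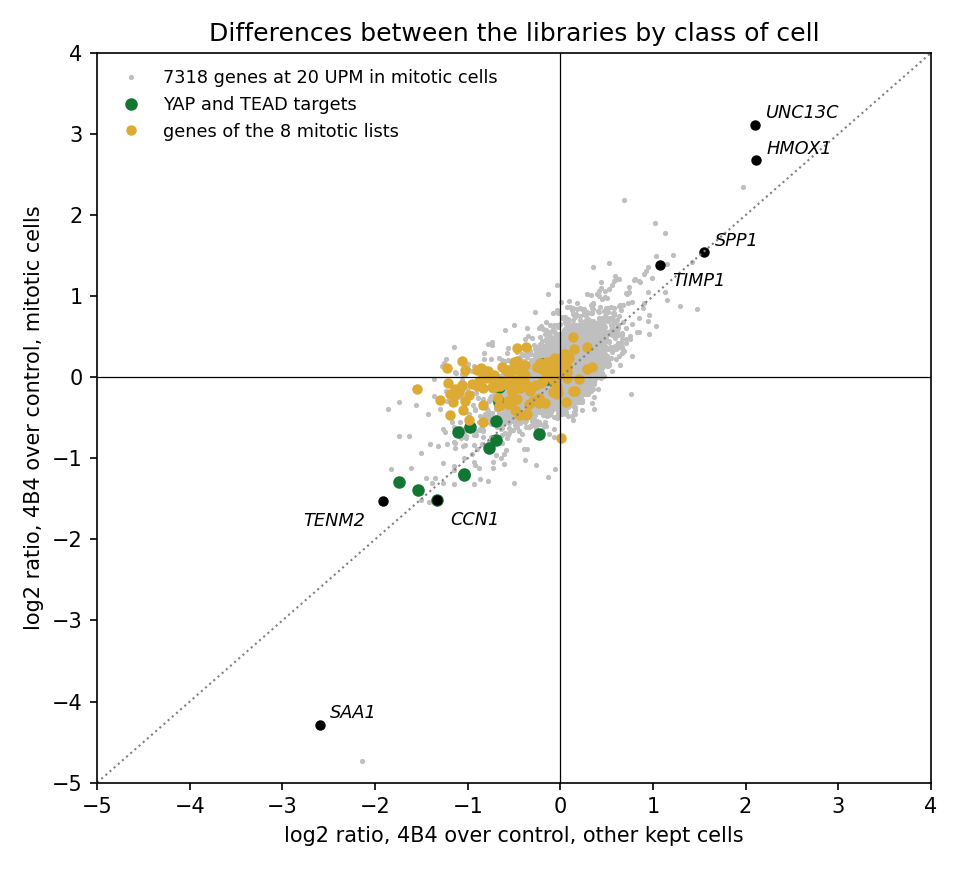
Log2 ratio, 4B4 over control, in mitotic cells (vertical axis) against other kept cells (horizontal axis) for the 7318 genes at 20 UPM in mitotic cells, with the YAP and TEAD targets, the genes of mitosis and 7 named genes marked and a dotted line of equality. Of the 43 genes at least 2-fold higher in mitotic cells 41 have a ratio above 0 in other cells, and all 35 lower ones have a ratio below 0. Over the 6646 genes at 20 UPM in other cells the median ratio there is 0.013, and the share of each sign over the 7318 was not counted. Both ratios come from the same pair of libraries, so the shared sign is a description.

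At the floor of 20 UPM fewer genes were lower in mitotic cells than higher, and with no floor beyond 3 UMIs 888 were higher and 1713 lower. With no floor, a gene with 3 UMIs in the other cells and 0 in mitotic cells counts as lower. Mitotic cells had the fewer UMIs in each library, so the counts without a floor show no direction. By the 2-fold rule at 20 UPM 20 genes (0.29% of 6904) were lower than in other cells of both libraries. RANBP3L was at 19.1 UPM in control and 20.3 in 4B4 mitotic cells against 75.6 and 89.0 in others. IL1B, the cytokine interleukin 1β, was at 14.9 and 34.8 UPM against 52.0 and 103, and APOE, a lipid carrier, at 28.4 and 59.0 against 73.4 and 141. TXNIP, which restrains glucose uptake, was at 58.7 and 52.4 UPM against 139 and 129. Each was at least 2-fold lower in mitotic cells in both libraries, as the count requires. SLC5A3, a myo-inositol transporter, was at 34.3 and 88.0 UPM against 157 and 200, and MRPS6, whose gene overlaps it, at 136 and 200 against 363 and 499, and reads of the pair may not be told apart. FN1 was also lower in mitotic cells, with log2 ratios over other cells of -1.25 in the control and -0.67 in the 4B4 library. Among stress and immediate early genes JUNB (116 UPM against 189 in the control, 124 against 210 in the 4B4 library) and IER3 (552 against 866, and 558 against 853) were lower in mitotic cells of both, and the chaperone gene HSP90AA1 was higher at 1903 and 1612 UPM against 1263 and 988. Of 15 on that list 3 were lower and 1 higher in the control, and 5 and 2 in the 4B4 library. Over all measured genes 5.67% were lower and 11.8% higher by that rule in the control, and 5.49% and 18% in the 4B4 library. The higher genes of the list were thus no larger a share than over all genes. With the top 15% chosen within each library 0 genes were 2-fold lower in mitotic cells of both, and 7 were with the top 20%.

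Most markers of other cell types were under 5 UPM in mitotic cells of both libraries. Of 12 (leukocyte, endothelial, epithelial and mural genes) 3 reached 5 UPM, PECAM1, PDGFRB and CD68, and 2 were at 0 in mitotic cells of both libraries. Their summed level was 51.5 UPM in control mitotic, 77.2 in other control, 72.3 in 4B4 mitotic and 102 in other 4B4 cells. PECAM1, an endothelial and leukocyte adhesion protein, was at 14.5 UPM in control mitotic, 35.0 in other control, 29.1 in 4B4 mitotic and 46.9 in other 4B4 cells. By the rule for lists PECAM1 was higher in 4B4 than in control mitotic cells, with a log2 ratio of 1.00, and lower in mitotic than in other cells of the control (-1.27) and of the 4B4 library (-0.69). The part of these markers in other results was not tested.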

How the data were processed

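Single-cell RNA was counted in 1 library per group, and the treatment label gave each group. Per the file headers the authors ran Cell Ranger 7.1.0, and what they deposited are unnormalized UMI counts of 36601 gene rows by barcode. GRCh38 and Seurat 5.0.1 are named in the submitters' processing notes, with no role for Seurat. For the gene annotation and the read depth, nothing is given in the sources used here, and the files hold called barcodes only. Alignment of reads to near-identical genes can divide or drop their counts.

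The score, filters and gene lists were chosen with earlier results of these data known. Counts were summed over cells of a class, divided by the class total (UPM), and compared as log2 ratios with exact conditional binomial intervals. Shares carry Clopper-Pearson intervals, at 95%. No test was run, since 1 library per group allows none. A gene was counted at 20 UPM on either side and a 2-fold ratio. The procedure was tested on simulated data, pools drawn with counting error alone. They held no spread between cells or between libraries, so that run does not cover such spread. Thinning drew 17000 UMIs per cell and left out 36 control and 5 4B4 mitotic cells. No doublet caller was run. Promoters matched by symbol, and those with 1 entry were used.

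Examples were named by rule. They were the genes of the score and up to 4 genes per list with the largest ratio in the control or between libraries. Between libraries the 12 largest ratios each way with the same sign under every alternative were added. Outside the lists the 12 largest ratios each way of mitotic over other cells were added, with no such condition on the sign. CDK1, MCM6, CDT1 and the genes given only for the score bands (FAM111B, UNG, PIF1) were named after their values were seen. Alternatives changed the cell filter, the bound and genes of the score, depth, cell weights, floor and scaling (TMM in edgeR 4.0.16, median-of-ratios). The weighting to score bands and the removal of each gene's richest cell were chosen after seeing the data. The software was Python with numpy 2.4.6, scipy 1.17.1 and pandas 2.3.3.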

Additional observations from a re-analysis of the deposited data

Results flagged for a closer look

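Barcodes outside the comparisons also held the transcripts of the score. Of the 240 control barcodes left out for fewer than 1000 genes or over 20% mitochondrially encoded UMIs, 13 (5.42%, exact 95% interval 2.92% to 9.08%) had a score at or above the bound, and of the 374 left out in the 4B4 library 11 did (2.94%, 1.48% to 5.20%). These barcodes enter no comparison. Their intervals lie above 0 by construction, as they would for any count above 0. The score is the one that chose the mitotic cells, and a few UMIs of its genes reach the bound in a shallow barcode. Their median depth was 2572 UMIs in the control and 4406.5 in the 4B4 library.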

How the results depend on the processing

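Over 24 alternatives, 168 named genes gave 4031 log2 ratios, of which 3287 stayed within the counting interval of the main value, 741 moved beyond it without reversing a called difference and 3 reversed one. The settings that changed only the floor leave every ratio as it was, so their values stayed by construction. Another sign than the main value was found in 315 values of 82 genes, 312 of them with a main value under 1.5-fold, and 34 lay past 1.5-fold in the other direction, 25 of these with the top 15% chosen within each library. Over cells of 20000 to 60000 UMIs the reversed values were those of LRRTM4 at -2.71 and PRSS35 at -0.57. The third was that of LRRTM4 at -0.062 without its richest cell of each library. The control share of mitotic cells was 20.3% under the stricter filter (at least 2000 genes, at most 10% mitochondrial UMIs), 12.7% and 24.6% with the top 10% and 20%, and 14.99% by construction with the top 15% within each library. The 4B4 share was 4.44%, 3.47%, 8.66% and 15.02% under the same settings, and 2.59% over cells of 20000 to 60000 UMIs, where it rests on 13 cells. The ratio of the shares was 2.99 to 3.34 with each score gene left out, 3.31 with thinned cells, 6.78 over cells of 20000 to 60000 UMIs and 4.58 under the stricter filter. Genes at least 2-fold higher in 4B4 mitotic cells (43) numbered 146 over cells of 20000 to 60000 UMIs, 66 with the within-library choice, 74 with thinned cells, 65 with each cell weighing the same, 24 without the richest cells, 23 at a floor of 50 UPM and 1185 with no floor beyond 3 UMIs, and 21 of the 43 were among the 146. Lower genes (35) numbered 295, 142, 16 and 3206 over cells of 20000 to 60000 UMIs, with the within-library choice, at 50 UPM and with no floor. Genes higher in mitotic cells of both libraries (330) numbered 175 at 50 UPM and 888 with no floor, and lower genes (20) numbered 10 and 1713, 7 with the top 20% and 0 with the within-library choice. A floor changes how many genes enter. With none, a gene with 3 UMIs in the larger pool and 0 in the smaller counts as lower in the smaller. The cause of the other changes was not tested. By fold alone, without the interval, 11 to 14 of the 20 targets of YAP and TEAD were at least 1.5-fold lower in all 24 settings. Their medians ranged from -0.92 to -0.63, and the same count over all genes was not made for each setting. No paired analysis was possible because each group has 1 library. The 4B4 mitotic values rest on 81 cells, which limits their precision.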
